A study of Mus musculus with 12 samples.

Results

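The genes described here encode the proteins of the cytosolic ribosome, the particle that translates messenger RNA outside the mitochondria. They were taken as the protein-coding genes whose symbol is Rpl or Rps followed by a number, with an optional paralogue suffix, together with Rplp0, Rplp1, Rplp2 and Rpsa. The rule gave 84 of the 55416 genes in the tables, of which 52 belong to the large subunit and 32 to the small subunit. The Rps6k kinases, Rps19bp1 (a binding protein of Rps19), the retrogene copy Rps27rt and every gene named as a pseudogene were left out. Fau and Rack1 also encode proteins of the ribosome but have other symbols, and they are given apart from the 84.

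Each ribosome holds 1 copy of nearly every ribosomal protein beside its ribosomal RNAs, so the genes are usually expressed at matched levels. Their messenger RNAs are abundant, short and stable, and most begin with a run of pyrimidines, the 5′ terminal oligopyrimidine (TOP) motif, through which mTORC1 and Larp1 control their translation. Skeletal muscle is known for a paralogue of its own, Rpl3l, which takes the place of Rpl3 in striated muscle fibres. Ribosome content is one of the determinants of how much protein a muscle can make, and muscle loses protein in cachexia, in which a tumour or other illness wastes the body.

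The libraries came from a muscle of the calf, the gastrocnemius, and from the hypothalamus, a brain region that governs feeding, of 6 male BALB/c mice with a labelled age of 7 weeks. Of these, 3 carried CT-26, a colon carcinoma cell line from mouse, injected subcutaneously at the abdomen, and 3 were healthy controls with no tumour. The mice with CT-26 weighed 7 to 10% less than controls by day 10 after the injection, and their tissues were taken on day 25. The labels used here give no collection day for the controls, so a difference in age at collection cannot be told apart from the tumour. The labels give no transgene and no drug, and all 12 libraries (4 groups of 3) are whole-tissue RNA from numbered mice, so that fewer cells of a type and less RNA per cell cannot be told apart.

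The muscle libraries held 26015741 to 42771331 expected counts each, and the hypothalamus libraries 27195316 to 52535761. The tissue labels fitted the marker genes: the summed level of 7 hypothalamic neuropeptide genes was 3443 to 5769 TPM (a level per unit of transcript length, scaled to a fixed total) in the hypothalamus and 0.99 to 2.73 TPM in the gastrocnemius. The 6 myofibre genes summed to at least 62525 TPM in each gastrocnemius library and at most 34.5 TPM in each hypothalamus library. Other cell type markers moved with the tumour in muscle, and their values stand beside the muscle results. Mitochondrially encoded genes took 8.26 to 11.1% of counts in CT-26 muscle and 13.5 to 19.7% in control muscle.

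Ribosomal protein transcripts took a larger share of the muscle transcriptome in the mice with CT-26. Their summed level was 54733, 52810 and 65354 TPM in the 3 CT-26 gastrocnemius libraries and 25324, 23313 and 20671 TPM in the 3 controls. The lowest CT-26 mouse stood far above the highest control. The group means were 57633 ± 6756 and 23103 ± 2334 TPM (SD, n = 3 each), a ratio of 2.49. As a share of expected counts, which is not per length, the genes took 2.26% ± 0.36 and 1.05% ± 0.06 of the libraries (SD, n = 3). The ratio was 2.14, and without mitochondrial genes it was 2.00. Such shares depend on what other genes take. The 10 most abundant genes held 22.5% of counts in CT-26 muscle and 31% in control muscle. In the hypothalamus the summed level was 41714, 38746 and 34054 TPM with CT-26 and 30823, 31707 and 34921 TPM in controls. Here the groups overlapped, since the third CT-26 mouse lay below the third control, and the ratio of means was 1.18. A sum over genes chosen with results known was given no test.

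**Figure D1:**
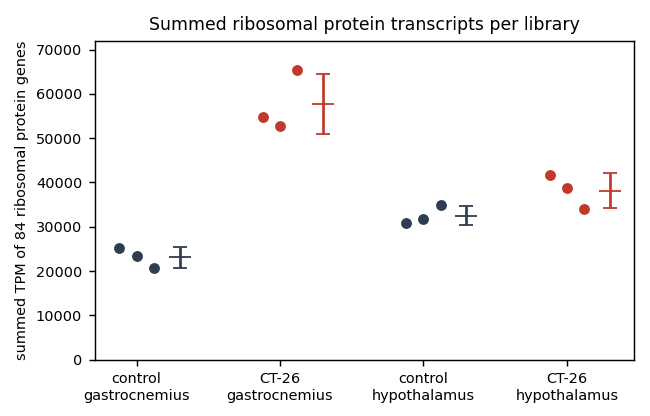
Summed level in TPM of the 84 ribosomal protein genes (vertical axis) in each of the 12 libraries by group; points are mice, and the horizontal mark with bars is the group mean ± SD. CT-26 gastrocnemius lies between 52810 and 65354 TPM, above the controls at 20671 to 25324, while the hypothalamus groups overlap.

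Gene by gene, the rise in muscle was broad. The 6 libraries of a tissue were fitted alone with edgeR's quasi-likelihood test on the counts, scaled by TMM (the trimmed mean of M-values, which takes the bulk of genes as unchanged), and a gene was called at a Benjamini-Hochberg adjusted p below 0.05 over all genes tested. Of the 84 genes, 82 passed the filter on low counts in the gastrocnemius. The remaining pair, Rpl39l and Rpl10l, are paralogues known from the testis. Rpl10l had 0 counts in all 12 libraries, which allows up to 0.0571 to 0.115 CPM (counts scaled by library size to a fixed total) at these depths, 3 counts per library, for counting error only. Of the 82 genes tested, 70 rose and none fell, while 19.6% of the 14265 genes tested rose and 18.3% fell. At an unadjusted p below 0.05, 74 were higher and 1 was lower, a threshold at which the share of all genes is not given here. The median log2 fold change of the 82 genes was 0.88, with the middle of the distribution between 0.71 and 1.01, and that of all genes tested was close to 0. In the large subunit 41 of 50 genes rose (median 0.85), and in the small subunit 29 of 32 rose (median 0.90). All 3 CT-26 mice lay above all 3 controls for 72 of the 82 genes, against 26.3% of all genes tested.

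**Figure D2:**
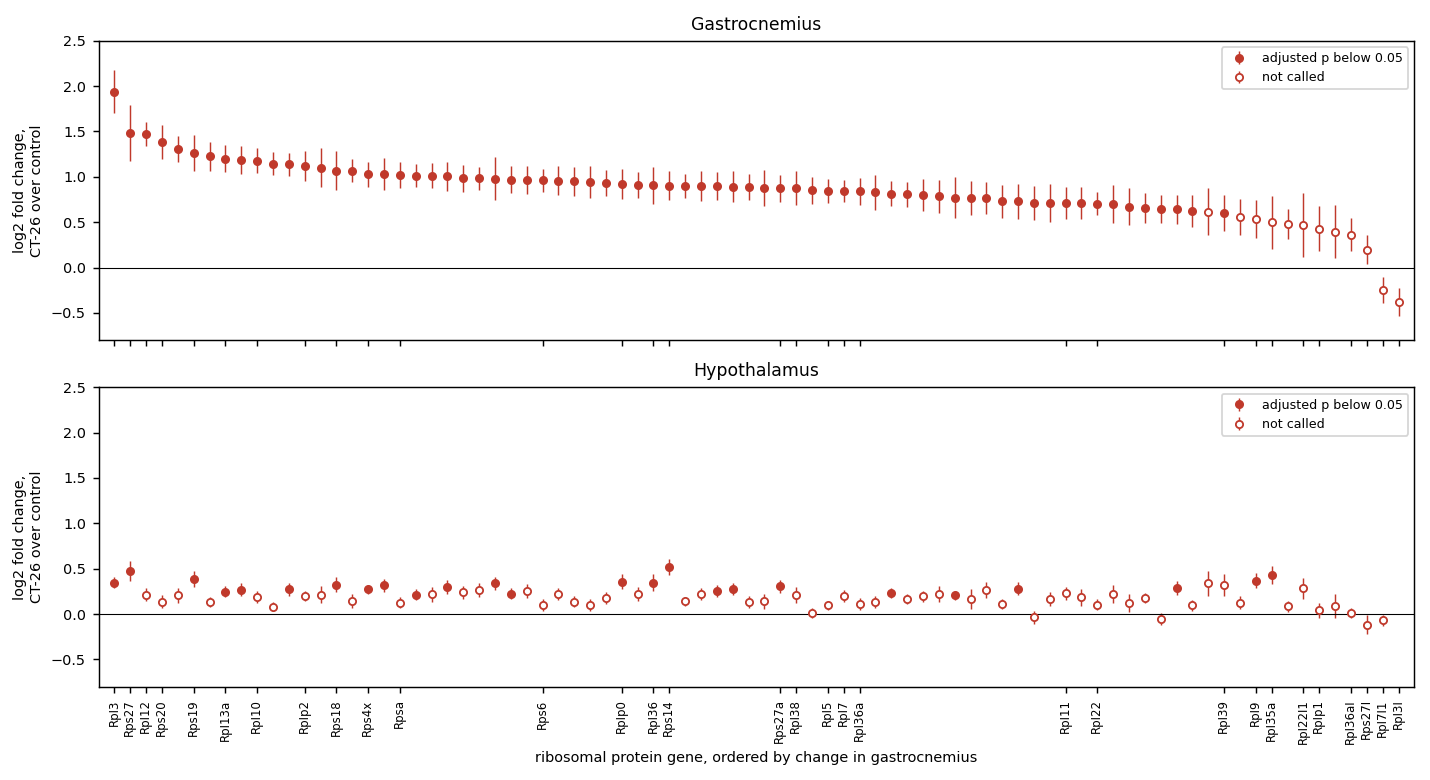
Log2 fold change (CT-26 over control, edgeR) of each tested ribosomal protein gene in the gastrocnemius (upper panel) and hypothalamus (lower panel), ordered by the muscle value; bars are standard errors, filled points passed an adjusted p of 0.05, and only some genes are labelled. Muscle values run from -0.38 (Rpl3l) to 1.94 (Rpl3), and hypothalamus values from -0.12 (Rps27l) to 0.52 (Rps14).

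Markers of some other cells moved with the same contrast, in which 19.6% of all genes tested rose and 18.3% fell. All 6 tested genes of 8 neutrophil markers rose, with a summed level of 72.3 to 550.5 TPM in CT-26 muscle and 0.79 to 1.22 TPM in controls, where 2 of the 8 were at 0. All 5 erythroid markers rose (2440 to 3051 against 532.1 to 891.7 TPM). Of the macrophage markers 1 of 6 rose (43.0 to 153.2 against 39.0 to 52.3 TPM), or 16.7%, a share below that of all genes. By contrast 5 of 6 fibroblast markers fell (31.8 to 48.3 against 122.5 to 206 TPM), as did all 4 adipocyte markers (18.3 to 23.9 against 73.1 to 93.9 TPM), 1 of 2 tested lymphocyte markers (2.62 to 3.87 against 30.9 to 38.5 TPM) and 2 of 6 myofibre genes (62525 to 98411 against 73632 to 110960 TPM). The part of these cells in the ribosomal protein results was not tested.

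The highest fold change belonged to Rpl3, a large-subunit protein that reaches towards the peptidyl transferase centre (GRCm38 chr15:80077791-80091868, minus strand). Its TMM-scaled level was 85.0, 50.5 and 99.9 CPM in the CT-26 mice and 23.0, 18.5 and 19.9 CPM in the controls. Every CT-26 mouse lay more than 2-fold above every control. The log2 fold change was 1.94 ± 0.24 (SE), 3.84-fold, with an edgeR adjusted p of 0.000848. Rps27, a small zinc-binding protein of the small subunit, came next at 278.8, 339.4 and 670.6 CPM against 159.8, 134.2 and 166.2 CPM. The groups did not overlap, but the third CT-26 mouse stood well above the other two, and the log2 fold change of 1.49 ± 0.31 was 1.01 without that mouse (edgeR adjusted p = 0.00703 with all 6). Rpl12, which lies at the base of the stalk that recruits translation factors, was at 361.5, 407.6 and 407.8 CPM against 150.1, 147.6 and 126.2 CPM. Its mice agreed closely within each group, and the log2 fold change was 1.47 ± 0.14 (edgeR adjusted p = 0.000322).

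Rps20, a protein of the small subunit's head, was at 221.6, 276 and 319.2 CPM against 105.3, 86.6 and 120.8 CPM, a log2 fold change of 1.39 ± 0.18. Rps19, the protein most often mutated in Diamond-Blackfan anaemia, was at 96.2, 92.3 and 147.6 CPM against 48.3, 40.6 and 50.7 CPM, a log2 fold change of 1.27 ± 0.20. In both genes every CT-26 mouse was above every control, and each of the 5 named so far was called in every fit that left out 1 library.

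The other genes described by role rose with the group, with the exception of Rplp1. The stalk proteins Rplp0, Rplp1 and Rplp2 bind the elongation factors. Rplp0 was at 429.2, 464.3 and 539.1 CPM against 282, 265.7 and 209.7 CPM (log2 fold change 0.92, edgeR adjusted p = 0.00376), and Rplp2 at 147.5, 158.8 and 207.6 CPM against 78.3, 69.2 and 89.3 CPM (1.12, edgeR adjusted p = 0.00182). Rplp1 was at 177, 295.6 and 303.6 CPM against 179.7, 152.2 and 245 CPM. Its groups overlapped because the first CT-26 mouse was at the level of the controls, and its log2 fold change of 0.43 was not called (edgeR adjusted p = 0.205).

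Rpl5 and Rpl11, which carry the 5S ribosomal RNA into the large subunit and can bind the p53 ligase Mdm2, rose with log2 fold changes of 0.85 and 0.71. Rpl11 was at 109, 135.3 and 178 CPM against 87.3, 80.6 and 89.8 CPM, so the groups were apart, but its call was lost in 2 of the 6 fits that left out 1 library. Rps6, the ribosomal substrate of the S6 kinases, was at 320.2, 345 and 358.6 CPM against 162.9, 177.3 and 185.1 CPM, a log2 fold change of 0.96 ± 0.13. Rpsa, also known as the laminin receptor, was the most abundant by counts of the genes named here, at 872.9, 920.9 and 987.7 CPM against 442.7, 443.9 and 484 CPM, 2.03-fold. In both genes the mice of a group lay close together and the groups were far apart.

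Rplp0, Rpl13a and Rps18 are widely used as reference genes in quantitative PCR. Rpl13a, which can leave the ribosome to repress translation of inflammatory mRNAs, was at 245, 294.7 and 324.5 CPM against 136.9, 116.3 and 123.5 CPM, a log2 fold change of 1.20 ± 0.15. Rps18 was at 70.2, 79.5 and 121.3 CPM against 48.8, 36.9 and 43.4 CPM, a log2 fold change of 1.07 ± 0.22. All 3 reference genes were higher in every CT-26 muscle than in any control muscle. Rpl38, known for its part in the translation of Hox mRNAs, rose by 0.87, and Rps27a, made as a fusion with ubiquitin, by 0.88 on the log2 scale.

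The 12 tested genes that were not called in muscle were the paralogues Rpl3l, Rpl7l1, Rps27l, Rpl36al and Rpl22l1, and Rps29, Rplp1, Rpl23a, Rpl35a, Rpl9, Rps10 and Rpl26. Of these, Rpl3l at -0.38 and Rpl7l1 at -0.25 had a negative log2 fold change, and the others ran from 0.20 (Rps27l) to 0.62 (Rpl26). Rpl35a, another gene mutated in Diamond-Blackfan anaemia, was at 23.1, 25.98 and 52.2 CPM against 27.1, 23.1 and 21.6 CPM. Only the third CT-26 mouse stood above the controls, and the log2 fold change fell from 0.50 to 0.04 in the lowest fit that left out 1 library. For Rpl9 the values were 111, 121.8 and 189 CPM against 109.4, 86.3 and 95.9 CPM, and the groups did not overlap although the edgeR adjusted p was 0.0771. Leaving out each library in turn gave 57 to 74 genes called higher, and 54 genes were called in all 6 such fits.

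Rpl3l (GRCm38 chr17:24727820-24736143, plus strand) went against the rest. Its TMM-scaled level in muscle was 219.5, 315.3 and 264.7 CPM in CT-26 mice and 340.5, 343.3 and 355.5 CPM in controls. All 3 CT-26 mice lay below all 3 controls on this scale, as did 25.3% of all genes tested, and the log2 fold change of -0.38 ± 0.16 was not called (edgeR adjusted p = 0.0905). Without the second CT-26 mouse it was -0.53 and called (edgeR adjusted p = 0.0241), and over all 12 libraries in a single fit it was -0.39 and called (edgeR adjusted p = 0.0454). The value depended on the scaling: it was -0.19 with library totals only and -0.02 with TPM, where the groups overlapped at 259, 304.7 and 254.3 TPM against 293.7, 281.8 and 253 TPM. Its fold change was below 0 in every setting run.

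Measured per length, Rpl3 was at 102.7, 49.8 and 97.3 TPM in CT-26 muscle and 19.7, 15.5 and 14.4 TPM in control muscle. Rpl3l thus made up 93.7, 94.8 and 94.6% of the summed TPM of the pair in control muscle and 71.6, 85.9 and 72.3% in CT-26 muscle. Each CT-26 mouse was below each control, a difference of -17.7 percentage points. The exact two-sided permutation test gave p = 0.1, the smallest that 3 mice against 3 can give, and 0.175 after Benjamini-Hochberg adjustment over 14 shares. In the hypothalamus Rpl3l was at 0.10 to 0.28 TPM in all 6 libraries and made up at most 0.103% of the pair.

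**Figure D3:**
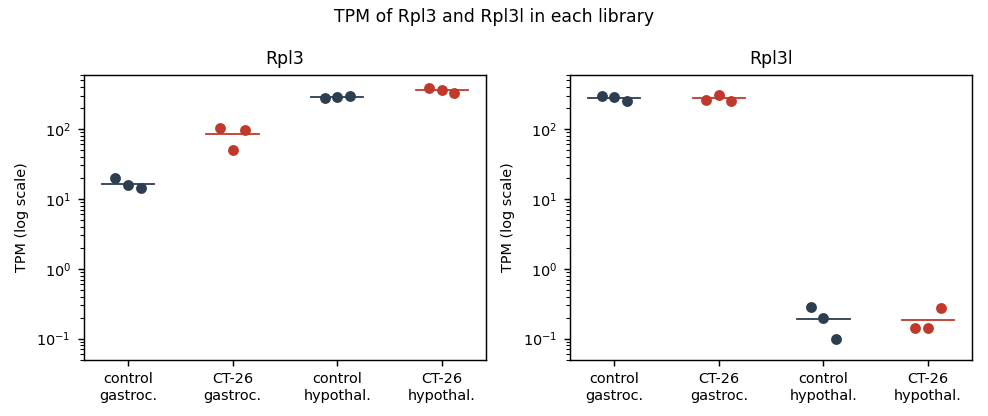
Level in TPM (logarithmic axis) of Rpl3 (left) and its striated-muscle paralogue Rpl3l (right) in the 12 libraries by group; points are mice and lines are group means. Rpl3 rises from 14.4 to 19.7 TPM in control muscle to 49.8 to 102.7 TPM in CT-26 muscle, while Rpl3l stays between 253 and 304.7 TPM in muscle and below 0.3 TPM in the hypothalamus.

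The coding sequences of both genes show how far reads can tell them apart. Aligned from start to stop codon, the 1212 coding bases of Rpl3 and the 1224 of Rpl3l were 74.36% identical, and the longest identical run was 22 bases, shorter than a 100 base read. The opening 120 coding bases, 5′ to 3′ from the start codon, are shown because the share of Rpl3l rests on them being separable. Capitals mark the 31 bases that differ.
Rpl3: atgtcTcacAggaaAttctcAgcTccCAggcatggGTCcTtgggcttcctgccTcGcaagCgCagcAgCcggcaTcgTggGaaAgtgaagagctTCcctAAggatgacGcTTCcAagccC
Rpl3l: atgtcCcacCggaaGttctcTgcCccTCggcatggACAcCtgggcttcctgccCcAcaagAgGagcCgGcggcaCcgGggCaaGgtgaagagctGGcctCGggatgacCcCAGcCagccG
Processed copies of Rpl3 are less easily told apart: 23 copies matched by sequence held 40.2% of the counts of Rpl3 and its copies in muscle. With those counts added back the log2 fold change was 1.93. The shares of Rpl3l given above count none of these copies as Rpl3 and were not recalculated with them. Rpl3 also overlaps Syngr1 on the opposite strand and holds small RNA genes, and the strand setting of the counting is not given in the sources used here.

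The 5 genes whose log2 CPM across the 6 gastrocnemius libraries was most like that of Rpl3l were Tmem98, Fgf7, A930016O22Rik, D830005E20Rik and Srsf9, with Pearson correlations of 0.99. This is a description of 6 libraries that share a tumour contrast, and only A930016O22Rik was itself called (log2 fold change -0.75).

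The other paralogue pairs moved in the same sense in muscle, with the paralogue taking a smaller share of the TPM of the pair in CT-26 mice. For Rps27l, a p53-responsive copy of Rps27, the share was 5.93, 6.26 and 3.69% with CT-26 and 11.3, 12.6 and 11.2% in controls. For Rpl7l1, a paralogue of Rpl7, it was 2.17, 2.18 and 2.83% against 5.03, 4.38 and 4.96%. For Rpl36al it was 46.9, 44.6 and 51% against 52.3, 59.9 and 56.8%. Groups did not overlap in these 3 pairs, the exact permutation p was 0.1 in each and the adjusted p 0.175. In each of them the parent gene rose while the paralogue was not called: Rps27l was at 44.4, 52.7 and 67.3 CPM against 50.4, 48.2 and 44.9 CPM, and Rpl7l1 at 18.2, 18.9 and 24.3 CPM against 25.3, 22.7 and 24.8 CPM.

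Rpl36a and Rpl36al are 87.85% identical in their coding bases, so their split is less certain than that of Rpl7 and Rpl7l1 at 59.86%. For Rpl22l1, a paralogue of Rpl22, the share was 7.64, 6.09 and 12.2% with CT-26 and 12.7, 8.94 and 13.7% in controls. These groups overlapped (exact permutation p = 0.2). Rpl22 itself was at 88.8, 108.7 and 107.5 CPM against 60.0, 61.9 and 65 CPM, a log2 fold change of 0.71 ± 0.13. Rps4l, annotated as a transcribed processed pseudogene and not among the 84, made up 0.26% ± 0.03 of its pair with the X-linked Rps4x in CT-26 muscle and 0.94% ± 0.25 in control muscle (SD, n = 3). Rps4x rose, at 318.7, 362.6 and 378.7 CPM against 191.5, 167.8 and 160.3 CPM. Rpl39, the parent of Rpl39l, had the smallest fold change among the genes that rose (0.60, edgeR adjusted p = 0.043), and its call was lost in 4 of the 6 fits that left out 1 library. Rpl10, the parent of Rpl10l, was called in all of them (1.18 ± 0.14).

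In the hypothalamus the differences were smaller, and the number of genes called depended on single libraries. Of the 81 genes tested there, 25 rose and none fell, while 3.94% of the 17961 genes tested rose and 4.83% fell (8.77% in all). At an unadjusted p below 0.05, 51 were higher and none was lower, and the share of all genes at that threshold is not given here. The median log2 fold change was 0.21, against 0.00 for all genes tested, and 77 of the 81 values were above 0. All CT-26 mice lay above all controls for 48 genes and below them for none, against 14.7% and 15.6% of all genes tested. The count of genes called higher fell to 3 without the first CT-26 mouse and 12 without the second. It was 4 without the first control and 3 without the second control. Without the third CT-26 mouse and the third control it was 20 and 23. In these 6 fits 1.55 to 2.97% of all genes were called higher. Of the 81 log2 fold changes, 75 to 79 stayed above 0, with medians of 0.13 to 0.25. The count was 0 in limma on log2 TPM and 0 over all 12 libraries in a single edgeR fit, against 1.16% and 0.58% of all genes. At an unadjusted p below 0.05, 28 and 14 genes were higher in these 2 fits, again with no share of all genes at that threshold. With DESeq2 the count of genes called higher was 38, against 4.25% of all genes. Beside these, 5 of 6 tested neutrophil markers and all 5 erythroid markers rose in the hypothalamus (summed level 26.1 to 285.1 against 2.98 to 3.92 TPM, and 1536 to 2140 against 714.2 to 1127 TPM), and 3 of 4 oligodendrocyte markers fell (1394 to 1631 against 2212 to 2501 TPM). Of the macrophage markers 2 of 6 rose (64.1 to 79.4 against 50.8 to 54.5 TPM), of the pituitary markers 1 of 2 tested (13.7 to 21.8 against 3.71 to 9.03 TPM), and of the hypothalamic neuropeptide genes 2 of 7 rose and 1 fell (4992 to 5769 against 3443 to 4431 TPM). In addition 1 of 3 tested lymphocyte markers and 1 of 4 tested markers of dividing cells fell (5.97 to 8.91 against 6.81 to 8.58 TPM, and 1.99 to 2.60 against 2.81 to 3.83 TPM). The part of these cells in the result was not tested.

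The 3 genes called in every fit that left out 1 hypothalamus library were Rps14, Rpl3 and Rps4x. Rps14, the small-subunit gene lost in the 5q- syndrome, was at 151.1, 129.6 and 119.2 CPM in CT-26 mice against 83.9, 91.6 and 103 CPM in controls. Its groups were apart, and its log2 fold change of 0.52 ± 0.09 was the highest of the set there (edgeR adjusted p = 0.00802). Rpl3 was at 407.3, 360.5 and 363.5 CPM against 288.6, 295.5 and 305.8 CPM, a log2 fold change of 0.35 ± 0.06. Rps4x was at 220, 215.5 and 203.7 CPM against 172.7, 172.8 and 182.7 CPM, a log2 fold change of 0.28 ± 0.05. In both genes the lowest CT-26 mouse was above the highest control.

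Rps27 was at 276.1, 256.8 and 205.6 CPM in CT-26 mice against 168.9, 157.5 and 205.3 CPM in controls, a log2 fold change of 0.47 ± 0.11. The third mouse of each group was at nearly the same level. The third mice were also the closest pair for Rpl35a, at 48.8, 51.4 and 42.9 CPM against 31.0, 34.3 and 41.0 CPM, and for Rps19, at 119, 102 and 93.2 CPM against 74.2, 77.4 and 88.6 CPM. Rpl9 and Rplp0 rose by 0.37 and 0.36 on the log2 scale. With counts of sequence-matched copies added, which hold 59.2% of the counts of Rpl35a and its copies, the log2 fold change of Rpl35a was 0.18 in place of 0.43 and no longer called (edgeR adjusted p = 0.0896).

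Several genes prominent in muscle were not called in the hypothalamus. Rpl12 was at 192, 155.9 and 158.2 CPM against 141.9, 146.3 and 148 CPM, a log2 fold change of 0.21 (edgeR adjusted p = 0.102). Rps20 was at 98.8, 89.6 and 94.9 CPM against 93.9, 75.9 and 87.9 CPM with overlapping groups. Rps6 and Rpsa had log2 fold changes of 0.10 and 0.12, and Rpl5 and Rpl11 of 0.10 and 0.23. The smallest values belonged to the paralogues Rps27l (-0.12) and Rpl7l1 (-0.07), and Rpl36al was at 0.01. Rpl22l1 was at 20.8, 24.1 and 22.1 CPM against 19.96, 14.7 and 20.3 CPM, above the controls in every CT-26 mouse yet not called (edgeR adjusted p = 0.154), and its share of the TPM of the pair was 37.9% ± 3.1 against 33.9% ± 3.1 (SD, n = 3). The shares of Rps27l, at 1.78% ± 0.36 against 2.81% ± 0.40, and of Rpl7l1, at 5.98% ± 0.23 against 6.97% ± 0.49, did not overlap between groups (exact permutation p = 0.1 each, 0.175 adjusted).

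The tumour effect in muscle exceeded that in the hypothalamus for many of the genes. In a fit of all 12 libraries, the difference of the 2 effects was called for 50 of 82 genes, each with the larger effect in muscle, against 12.4% of 18746 genes called in that direction and 14% in the other. At an unadjusted p below 0.05, 65 genes differed in that direction and none in the other. The share of all genes at that threshold is not given here. The median difference was 0.67 on the log2 scale, against -0.06 for all genes. Rpl3 had the largest difference at 1.58 ± 0.27 (edgeR adjusted p = 0.000883), followed by Rpl12 at 1.24 ± 0.15 and Rps20 at 1.23 ± 0.21. All 3 were called in each of the 12 fits that left out 1 library, as were 37 genes in all. Rps27 and Rps14, the leading genes of the hypothalamus, had differences of 1.00 and 0.37 that were not called (edgeR adjusted p = 0.058 and 0.203). Across the 81 genes tested in both tissues the 2 fold changes had a Pearson correlation of 0.42 and a Spearman correlation of 0.31. The tissues came from the same mice, which the fit that called 50 genes did not take into account. With the mouse as block, 43 of 82 genes were called with the larger effect in muscle and 0 in the other direction. Among all genes 9.56% and 11.1% were called in these directions. Genes are not independent replicates.

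Among the control mice, which group of genes was higher in muscle than in brain depended on the scaling. With TMM, 80 of 82 genes were higher in control gastrocnemius than in control hypothalamus and 1 was lower, against 38.7% and 47.3% of the 17807 genes tested (86% in all). On that scale the 3 muscle libraries lay above the 3 hypothalamus libraries for 80 genes and below them for 1, Rpl3, against 39.3% and 48.6% of all genes. With library totals only, 9 were higher and 44 lower, against 16.4% and 73.5% of all genes. With limma on log2 TPM 4 were higher and 47 lower, against 14.6% and 75.1% of all genes. The median log2 difference was 0.99, -0.38 and -0.47 under these scalings, and that of all genes was -0.23, -1.60 and -1.20, so the genes stood above the median of all genes under each. The 10 most abundant genes held 31% of counts in control muscle and 11.6% in control hypothalamus.

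Some genes kept their direction under all 3 scalings. Rpl3l was at 293.7, 281.8 and 253 TPM in control muscle and 0.28, 0.2 and 0.1 TPM in control hypothalamus (log2 difference 12.1 with TMM and 8.65 with TPM). Rps27l was at 185.6, 167.7 and 123.5 TPM against 43.4, 39.5 and 49.8 TPM, and Rplp0 at 265.9, 250.7 and 160 TPM against 72.2, 79.5 and 91.4 TPM. Rpl22 was at 154.6, 156.4 and 138.8 TPM in muscle and 110.1, 105.4 and 118.1 TPM in hypothalamus. In each of these the lowest muscle library was above the highest hypothalamus library. Rpl36 was higher with TMM (1.72) and library totals (0.35) but was not called with TPM (0.23, adjusted p = 0.196 in limma). Rpl3 was the exception in the other direction, at 19.7, 15.5 and 14.4 TPM in muscle against 272.7, 281.8 and 293.7 TPM in hypothalamus, a log2 difference of -2.57 with TMM and -4.07 with TPM. Even in CT-26 muscle, at 83.3 ± 29.1 TPM (SD, n = 3), Rpl3 was below its level in control hypothalamus, 282.7 ± 10.5 TPM.

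**Figure D4:**
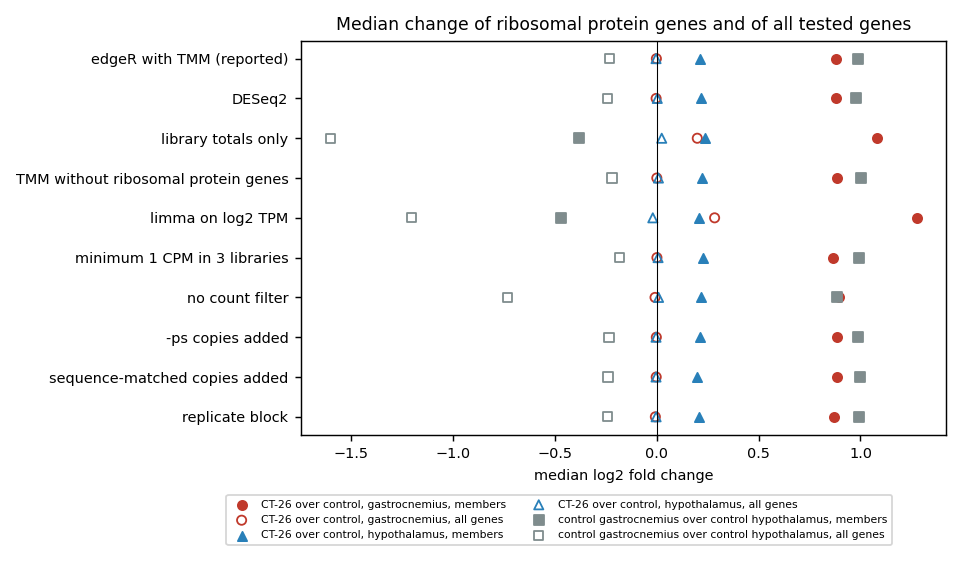
Median log2 fold change of the ribosomal protein genes (filled) and of all tested genes (open) under each setting, for CT-26 over control in the gastrocnemius (circles) and hypothalamus (triangles) and for control gastrocnemius over control hypothalamus (squares). Over the settings drawn, which leave out no library, the median of the muscle contrast is 0.87 to 1.28 (0.76 without the third CT-26 mouse), while that of the tissue contrast turns from 0.99 to -0.38 and -0.47 with library totals and TPM.

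In the muscle contrast the scaling moved all genes together: with library totals the median was 0.20 over all genes and 1.08 over the ribosomal protein genes, and with TPM it was 0.28 and 1.28. The number called higher was 75 and 78 under these scalings and 73 with DESeq2, against 27.7%, 31.5% and 19.5% of all genes. None was lower in these 3 fits, against 11.7%, 6.63% and 18.6% of all genes. By level per length, Rps27 was the most abundant of the genes in all 4 groups, at 4635 ± 2327 TPM in CT-26 muscle and 1201 ± 241 TPM in control muscle (SD, n = 3). The median gene was at 553.6 TPM in CT-26 muscle, 229.8 TPM in control muscle, 348.2 TPM in CT-26 hypothalamus and 291.3 TPM in control hypothalamus.

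The start sites of the genes were read from RefSeq on build GRCm38.p6, where 64 of the 84 genes had a promoter entry. A pyrimidine tract was searched as a C within 4 bases of the annotated start on the gene's strand, followed by at least 4 bases that are C or T. It was found in 28 of the 64 genes, 43.75%, and in 16.39% of the 27025 genes of the table. The windows below run from 15 bases before to 15 bases from the start, with the tract in capitals. Rps6, Rps27, Rpl12, Rps18 and Rpl38, which rose in muscle, hold such a tract.
Rps6 (chr4:86857353-86857382, minus strand): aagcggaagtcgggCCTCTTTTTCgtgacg
Rps27 (chr3:90213634-90213663, minus strand): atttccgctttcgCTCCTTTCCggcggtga
Rpl12 (chr2:32961697-32961726, plus strand): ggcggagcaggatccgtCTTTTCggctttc
Rps18 (chr17:33955651-33955680, minus strand): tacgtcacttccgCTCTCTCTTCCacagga
Rpl38 (chr11:114668565-114668594, plus strand): agcggaagcctcgttCTTTCCCCgttctct
The paralogues that did not rise are shown beside them because they are the genes that stand apart in muscle. Rpl3l, Rpl7l1 and Rpl36al hold no such tract in this window, and Rps27l and Rpl22l1 do.
Rpl3l (chr17:24727811-24727840, plus strand): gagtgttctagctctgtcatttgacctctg
Rpl7l1 (chr17:46782642-46782671, minus strand): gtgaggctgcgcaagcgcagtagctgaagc
Rpl36al (chr12:69184053-69184082, minus strand): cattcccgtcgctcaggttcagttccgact
Rps27l (chr9:66946071-66946100, plus strand): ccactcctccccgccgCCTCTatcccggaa
Rpl22l1 (chr3:28805493-28805522, plus strand): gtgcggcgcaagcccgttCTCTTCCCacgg
Rpsa, which rose 2.03-fold, has no such tract either.
Rpsa (chr9:120127751-120127780, plus strand): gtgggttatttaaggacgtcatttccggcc
The muscle contrast did not separate the genes by this search. Of the 28 genes with a tract 24 rose, with a median log2 fold change of 0.82. Of the 34 tested genes without it 29 rose, with a median of 0.90. The search rests on the annotated start and matched 28 of 64 genes, although most of these mRNAs carry a TOP motif. A gene without a match can thus still carry the motif, and the comparison cannot show whether the rise depends on it. The letters CCGGAAG, on either strand, a form of the site bound by ETS factors, were in the 300 promoter bases of 26 of the 64 genes, 40.6%, and of 9.93% of all genes in the table. A match is a description of letters, not a shown site.

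The fold changes in muscle were not tied to gene length. Across the 82 genes the log2 fold change and the log2 effective length had a Pearson correlation of -0.03, and the log2 fold change and the mean log2 CPM one of 0.32. Genes with an effective length up to 300 bases had a median of 0.78 over 20 ribosomal protein genes and of 0.26 over all 301 genes of that length. Between 600 and 1000 bases the medians were 0.94 and 0.04. Genes named as pseudogene copies of the set, 298 in all, held 4.46 to 5.53% of the counts of genes and copies in muscle libraries. With these added 71 genes rose, against 19.6% of all genes. The 1171 copies matched by sequence held 8.36 to 9.53%, and with them added 72 genes rose, against 19.6% of all genes. Rpl23a (0.49) and Rpl26 (0.69) were then called (edgeR adjusted p = 0.0492 and 0.00998). For Rpl26 such copies held 77.85% of the counts of the gene and its copies in muscle.

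Other genes of the translation machinery moved with them in muscle. Each list is described by its counts and median. Fau rose with a log2 fold change of 1.15 (192.3 ± 15.8 against 86.8 ± 0.72 CPM, SD, n = 3) and the scaffold protein Rack1 with 1.04. Of 24 other genes whose mRNAs carry a TOP motif, 19 rose and none fell, with a median of 0.74, against 19.6% and 18.3% of all genes tested. Eef1a1, which brings aminoacyl-tRNA to the ribosome, rose from 286 ± 10.8 to 594.8 ± 62.1 CPM (log2 fold change 1.06, edgeR adjusted p = 0.00109). The initiation factor subunit Eif3f rose by 1.07, the nucleolar protein Npm1 by 0.92, the translocase Eef2 by 0.94 and Tpt1 by 0.59, and Pabpc1 was at -0.25 and not called. In the hypothalamus 5 of the 24 rose, against 3.94% of all genes tested there. Among them were Eif4b by 0.37, Snhg12 by 0.43 and Eef1a1 by 0.21, and the median of the 24 was 0.13.

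Of 38 factors that assemble ribosomes, 30 rose in muscle and none fell, with a median log2 fold change of 0.61, against 19.6% and 18.3% of all genes tested. The tumour effect was larger in muscle than in the hypothalamus for 26 of the 38 by the interaction test, against 12.4% of all genes. Ftsj3 (57.5 ± 2.7 against 24.4 ± 1.0 CPM) and Nop14 (48.4 ± 6.7 against 20.3 ± 1.3 CPM) rose by 1.24 and 1.25, and the nucleolar GTPase Gnl3 by 1.10. Fbl, the methyltransferase of ribosomal RNA, was at 0.18 and not called. In the hypothalamus none of the 38 rose and 2 fell, Bysl at -0.38 and Fbl at -0.29, a share near the 4.83% of all genes that fell there. Of 15 genes of RNA polymerase I and ribosomal RNA transcription, 6 rose in muscle and none fell (median 0.41, against the same shares of all genes), and the effect was larger in muscle for 8 of 15 by the interaction test. They included Taf1d (1.45), Cd3eap (1.22) and the second-largest polymerase subunit Polr1b (0.93). Ubtf, the factor that opens ribosomal DNA for transcription, was at 0.26 in muscle (edgeR adjusted p = 0.165) and fell in the hypothalamus, from 88.7 ± 7.25 to 71.5 ± 3.94 CPM (log2 fold change -0.31, edgeR adjusted p = 0.0183).

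The genes that control TOP mRNAs moved in both directions. In muscle 12 of 23 rose and 3 fell, with a median of 0.39, against 19.6% and 18.3% of all genes; for those that fell the share is below that of all genes. Eif4ebp1, the repressor of cap-dependent translation that mTORC1 holds in check, rose from 37.1 ± 5.3 to 382.8 ± 44.5 CPM (log2 fold change 3.37 ± 0.17, edgeR adjusted p = 6.85e-05). Sesn1 and Ddit4 rose by 3.66 and 3.23, and the second of these was variable in CT-26 mice at 110.3 ± 47.3 CPM. Myc, an activator of ribosome synthesis, rose from 3.46 ± 0.72 to 9.92 ± 1.08 CPM (1.52), and Larp1, which binds TOP motifs, by 0.48. The genes that fell were Mlst8, Deptor and Castor2, at -0.44, -0.77 and -0.75. In the hypothalamus 2 of 24 rose, Castor1 by 0.66 and Ddit4 by 0.51, and 1 fell, Eif4ebp2 by 0.29. Of all genes tested there 3.94% rose and 4.83% fell. Larp1 and Myc were not called.

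**Figure D5:**
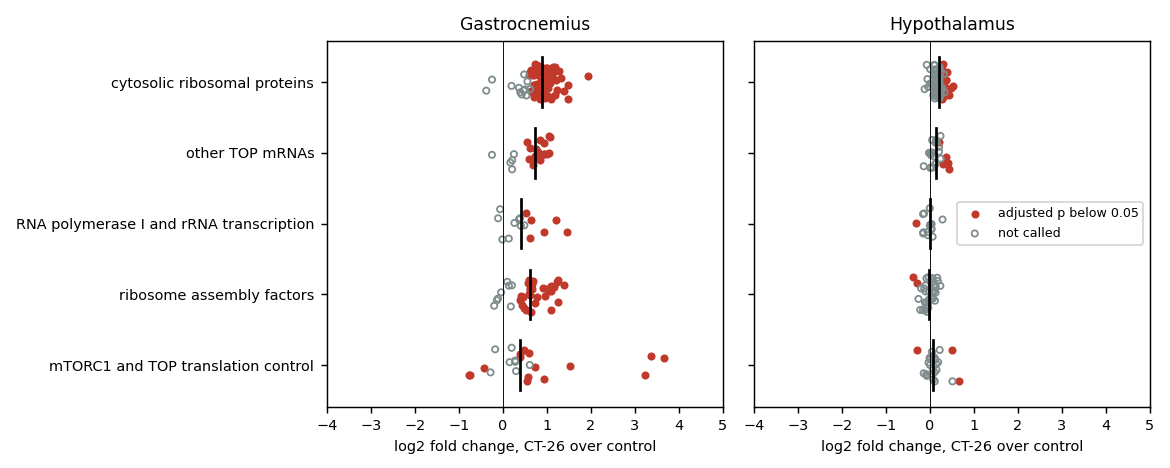
Log2 fold change (CT-26 over control, edgeR) of each gene of the ribosomal protein set and of 4 related lists, in the gastrocnemius (left) and hypothalamus (right); points are genes, filled where the adjusted p was below 0.05, and bars are list medians. In muscle the medians run from 0.39 to 0.88, and in the hypothalamus from -0.02 to 0.21.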

How the data were processed

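RNA was measured in 12 libraries: gastrocnemius and hypothalamus of 3 mice with CT-26 and 3 controls. Per the labels' protocols, the MGIEasy directional RNA kit and an MGISEQ-2000 gave paired reads of 100 bp. Tools of the authors were RSEM 1.3.3, STAR 2.7.9a and Trim Galore 0.6.6 with build GRCm38, per the submitters' processing notes. The annotation release and strand setting are not given in the sources used here. The deposited tables hold expected counts, estimated fragment numbers per gene with fractions, and deposited TPM values, scaled per length to a fixed total; both were used, with the deposited effective lengths.

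Expected counts were rounded and tested with edgeR 4.0.16 in R 4.3.3 (filterByExpr, TMM, glmQLFit, glmQLFTest, Benjamini-Hochberg over all genes tested, adjusted p below 0.05), within each tissue, for the difference between tissues over all 12 libraries, and between the tissues of the 3 control mice. Genes were named from GENCODE M21 on GRCm38. Standard errors come from the test statistic. Shares within paralogue pairs were tested with exact two-sided permutation tests. Alternatives were DESeq2 1.42.0, limma 3.58.1 on log2(TPM + 0.5), whose fold changes understate changes of low genes, library totals, other count filters, a replicate block, each library left out, and copies added; copies were named -ps or matched with BLAST 2.17.0 at 90% identity over at least 50% of their length. The fits were tested on simulated data. No pair of libraries agreed within sampling noise.

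The members, lists and tests were chosen with earlier results of these data known. Named were both genes of each paralogue pair, 12 members of known role, the 6 called members with the highest fold change in each tissue, the 4 with the largest difference between tissues, and the 5 at each end between control tissues (1 at the lower end), the mean log2 CPM being 1 or more; of each list, the 3 called genes with the smallest p and 9 fixed genes. Some genes these rules or lists hold are not reported here. Other names were chosen after their values were seen. The same numbers of CT-26 and control mice are different animals. The tissues of a mouse share its number, and their deviations from the group means correlated from -0.08 to 0.15.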

Additional observations from a re-analysis of the deposited data

Results flagged for a closer look

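The tumour effect on 17 genes described above differed between the tissues by the interaction test of the 12 libraries (edgeR quasi-likelihood test, Benjamini-Hochberg adjusted p below 0.05), which is why they are listed. Each value is the log2 fold change in the gastrocnemius minus that in the hypothalamus, and a positive value is a larger rise in muscle. Of the large subunit, Rpl3 had 1.58, Rpl12 1.24, Rpl10 0.97, Rpl13a 0.94, Rplp2 0.91, Rpl5 0.74, Rpl36a 0.71, Rpl7 0.63 and Rpl22 0.59. Of the small subunit, Rps20 had 1.23, Rpsa 0.88, Rps19 0.87, Rps6 0.84, Rps4x 0.74, Rps18 0.73 and Rps27a 0.56. With the mouse as block, which pairs its 2 tissues, Rps18 and Rps27a were not called (edgeR adjusted p = 0.0623 and 0.0668). They were called in 3 and 7 of the 12 fits that left out 1 library. Rps19 was not called without the second control muscle (edgeR adjusted p = 0.0652). The value of Rps4l, the pseudogene copy of Rps4x, was -0.98, a fold change that was lower in muscle than in the hypothalamus.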

How the results depend on the processing

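In muscle the number of genes called higher stayed within 1.5 times of 70 under each alternative run, from 57 to 78. The share of all genes called higher ran from 11.6% with no count filter to 31.5% with limma on TPM. Ribosomal protein genes called lower were 0 except for Rpl3l over all 12 libraries (1) and 0 to 1 when a library was left out. Summed level ratios were 2.14 as a share of counts and 2.00 without mitochondrial genes, and 2.33 to 2.62 with a library left out. The hypothalamus count of 25 became 38 with DESeq2, 51 with no count filter, 0 over all 12 libraries and 0 with limma on log2 TPM. It was 3 to 23 with a library left out. The share of all genes called higher was 3.94% in the main fit, 0.58% over all 12 libraries and 1.16% with limma. The cause was not tested. Between control tissues 80 higher and 1 lower became 9 and 44 with library totals and 4 and 47 with limma on TPM. The share of all genes called lower was 47.3% in the main fit, 73.5% with library totals and 75.1% with limma on TPM. A replicate block over mouse numbers, which pair no animals between CT-26 and control, gave 72 in muscle and 10 in the hypothalamus. Of all genes 20.2% and 2.82% were called higher in these fits. For the difference between tissues the block was the mouse itself, which pairs its 2 tissues. It gave 43 genes with the larger effect in muscle, against 9.56% of all genes. In muscle the deviations of same-numbered mice correlated at -0.05, 0.18 and 0.27, and in the hypothalamus at -0.12, -0.05 and -0.02. Fold changes that turned sign included Rpl22l1 in muscle (-0.054 to 0.68 with a library left out) and Rpl7l1 in muscle with limma on TPM (0.15). In the hypothalamus with a library left out they included Rpl36al (-0.020 to 0.039) and Rplp1 (-0.021 to 0.15). None of these was called, and the list is not complete. With 3 mice a group, the exact tests could not go below 0.1.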
